A study of Mus musculus with 12 samples.

Results

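The clustered protocadherins are cell adhesion genes that lie side by side in 3 clusters, alpha, beta and gamma. All genes of the count files whose symbol starts with Pcdha, Pcdhb or Pcdhg were taken, which gave 58 of 48709 genes: 14 alpha, 22 beta and 22 gamma members. Their expression was compared by RNA sequencing between 6 control and 6 mimic samples of mouse primary hippocampal neurons. The cells came from embryonic day 17 embryos of CD1 mice, were treated at day 10 in vitro (DIV10) and were harvested at DIV12 after 48 h. In the mimic group lipid nanoparticles carried a miR-148a-3p mimic, a synthetic copy of this microRNA, and in the control group they carried a negative control oligonucleotide, so both groups received particles and RNA. No untreated sample was analysed here. The labels do not say whether the samples came from separate cultures or litters, so p-values measure the spread between these samples.

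Each clustered protocadherin is a transmembrane protein of the cadherin superfamily that binds to the same isoform on a neighbouring membrane. A neuron switches on a small mix of the alternate isoforms, and this mix lets its branches recognise each other and avoid crossing. The C-type isoforms at the ends of the alpha and gamma clusters (Pcdhac1, Pcdhac2, Pcdhgc3, Pcdhgc4, Pcdhgc5) are instead expressed in most neurons. Every alpha and gamma isoform joins its own large variable exon to constant exons that all members of the cluster use, whereas a beta isoform is encoded by its own exon alone. Which alternate promoter is used depends on DNA looping by CTCF and cohesin and on DNA methylation.

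Because a microRNA acts through its seed, the sequences of both oligonucleotides are shown with the seed, bases 2 to 8, in capitals. They are as listed in the reagents of the study. Since the submitters describe the control as a siRNA, values for its seed hold only if the listed sequence was the one used in these cultures. The mimic equals the mature mmu-miR-148a-3p of RefSeq.
miR-148a-3p mimic: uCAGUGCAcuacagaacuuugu
negative control: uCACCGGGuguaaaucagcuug
The longest 3′ untranslated region (UTR) of each gene was searched on the transcript strand for a match to bases 2 to 8 of each oligonucleotide (TGCACTG for the mimic and CCCGGTG for the control) or to bases 2 to 7 followed by A (GCACTGA and CCGGTGA). The 2 forms overlap by 6 bases and were counted as 1 site where they coincided. Of the 15082 tested genes with a UTR, 21.9% had a site for the mimic and 4.42% had a site for the control. None of the 12 tested alpha members and none of the 20 tested gamma members had a site for the mimic. In the beta cluster 2 of 22 members had sites, 1 in Pcdhb18 and 2 in Pcdhb19, and neither was called different between the groups (log2 fold change 0.05, standard error (SE) 0.07, and 0.08, SE 0.07). The control seed matched 1 place in the UTR that the gamma isoforms share, so all 20 tested gamma members carried the same match, and it matched no alpha or beta member. These matches are letters in an annotated UTR, and binding was not measured.

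Shared exons set what a count of a single alpha or gamma member can mean. In the GENCODE annotation of this genome build each alpha member shared at least 2860 exon bases with the 13 other alpha members, and each gamma member shared at least 2116 bases with the 21 other gamma members. A read of 50 bp inside these constant exons matches every isoform of the cluster, so it cannot be given to a member. Counting all overlaps with other genes, 48.6% to 93.0% of the exon length of an alpha member and 31.5% to 100% of that of a gamma member lay in another annotated gene. Beta members had no constant exons, and 19 of 22 shared no base with another gene. The exceptions were Pcdhb21 and Pcdhb22, which overlapped by 455 bases, and Pcdhb12, of which 63.5% lay opposite the antisense gene Gm37446.

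**Figure D1:**
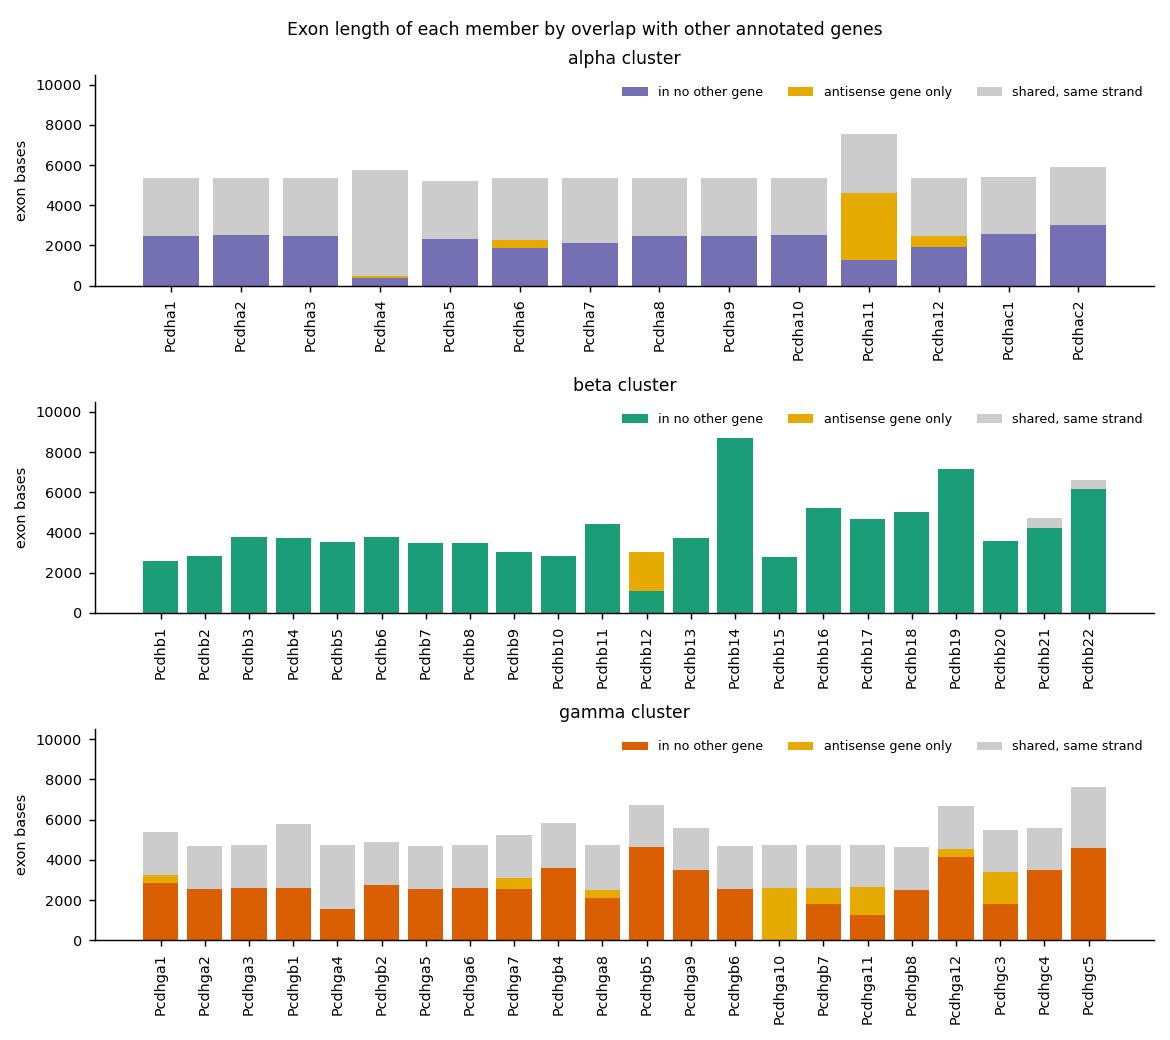
Exon bases (y axis) of each clustered protocadherin in order along its cluster (x axis), split into bases in no other annotated gene (cluster colour), bases overlapped only by a gene on the opposite strand (yellow) and bases shared with a gene on the same strand (grey). The grey part is the constant exons in most alpha and gamma members, it is absent from all beta members but Pcdhb21 and Pcdhb22, and no base of Pcdhga10 is free of another gene.

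The members with fewest counts differed in how much sequence was their own. Pcdhga10 had 0 assignable bases, because its variable exon lies opposite the antisense gene Gm26672, and it had 0 counts in all 12 libraries. Pcdha4 had 404 assignable bases, since the annotated gene Gm42416 also covers its variable exon, and 0 to 8 counts per library. Pcdha11 had 1268 assignable bases, with Gm10544 and Gm10545 on the opposite strand, and 0 to 10 counts, whereas Pcdhga11 with 1256 assignable bases had 267 to 494. Pcdhgb8, which is annotated as a pseudogene in some strains, had 2499 assignable bases and 0 or 1 count. These 4 members did not reach 5 counts in 6 samples and were not tested, so 54 members were tested: 12 alpha, 22 beta and 20 gamma. The 0 counts of Pcdhga10 give no measure of its expression, since none of its sequence was assignable, and the counts of Pcdha4 rest on a short stretch. The library kit does not mark the strand of a read, and whether counting used strand, or how it treated reads in 2 genes, is not given in the sources used here. A count of an alpha or gamma member is therefore taken here as reads of its variable exon, and a transcript of the cluster that is read only in the constant exons is in no member's count. Similar variable exons limit the counts as well. Of the 50-base windows wholly within a member's assignable bases, a share occurred exactly in another gene. This share was 0% to 25.4% in alpha members, 0% to 9.52% in beta members and 0% to 16.8% in gamma members. Pcdhga10 had no such window. In the C-type members this share was 0%.

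The alpha cluster lies at chr18:36930184-37187661, the beta cluster at chr18:37264938-37524479 and the gamma cluster at chr18:37661793-37841873 of mm10, all on the plus strand. Library totals ranged from 20018234 counts in control replicate 1 to 37149112 in control replicate 3. Control replicate 1 also stood apart in the members' values: of the 54 tested members it was the lowest control library for 17 and the highest for 18. Where a called gene named here had groups that overlapped through control replicate 1 alone, the value without it is given as well.

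Levels were compared between members in CPM, that is counts divided by the library total after scaling by the trimmed mean of M values (TMM), per kilobase of assignable exon. In control cultures the highest value was that of Pcdhgc3, a C-type isoform known to bind the Wnt pathway scaffold Axin1, at 40.1 ± 2.78 (SD, n = 6). This value rests on 1821 assignable bases, and it would be 21.6 if the bases opposite the antisense gene BC037039 were counted as its own. Pcdhac2, the C-type isoform known for the spacing of serotonergic axons, followed at 19.7 ± 0.637. Pcdhga3, an alternate isoform, was the next gamma member at 12.1 ± 0.584, ahead of Pcdhgc4, a C-type isoform needed for survival of interneurons, at 10.7 ± 0.873. The spread of the last pair overlapped. Pcdhgc5, the C-type isoform found at some inhibitory synapses, was at 5.86 ± 0.590, in the midst of the alternate gamma members, and Pcdhac1 was among the lowest alpha members. The C-type members thus did not share a common level.

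Among the alternate members, Pcdha12 was the highest alpha isoform at 6.41 ± 0.224 CPM per kilobase, and Pcdha8 was the lowest tested member of any cluster at 0.230 ± 0.0389. With bases opposite an antisense gene counted as its own, Pcdha12 would be at 5.04, below Pcdha3 at 5.65. In the beta cluster Pcdhb9 (6.75 ± 0.282) and Pcdhb7 (5.07 ± 0.274) were highest and Pcdhb1, the outermost member, was lowest at 0.665 ± 0.112, although Pcdhb12 would be lower, at 0.495, if the bases opposite Gm37446 were counted as its own. Pcdhga5 was the lowest tested gamma member at 2.04 ± 0.296. The median over tested members was 3.41 in the alpha, 2.64 in the beta and 5.99 in the gamma cluster. Apart from Pcdhgc3 and Pcdhac2 at the upper end and Pcdha8 at the lower, all tested members lay between 0.665 and 12.1. The coefficient of variation between control libraries had a median of 7.90% for alpha, 7.75% for beta and 7.73% for gamma members. These are levels over many cells, and fewer cells that express an isoform and less RNA per cell cannot be told apart.

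**Figure D2:**
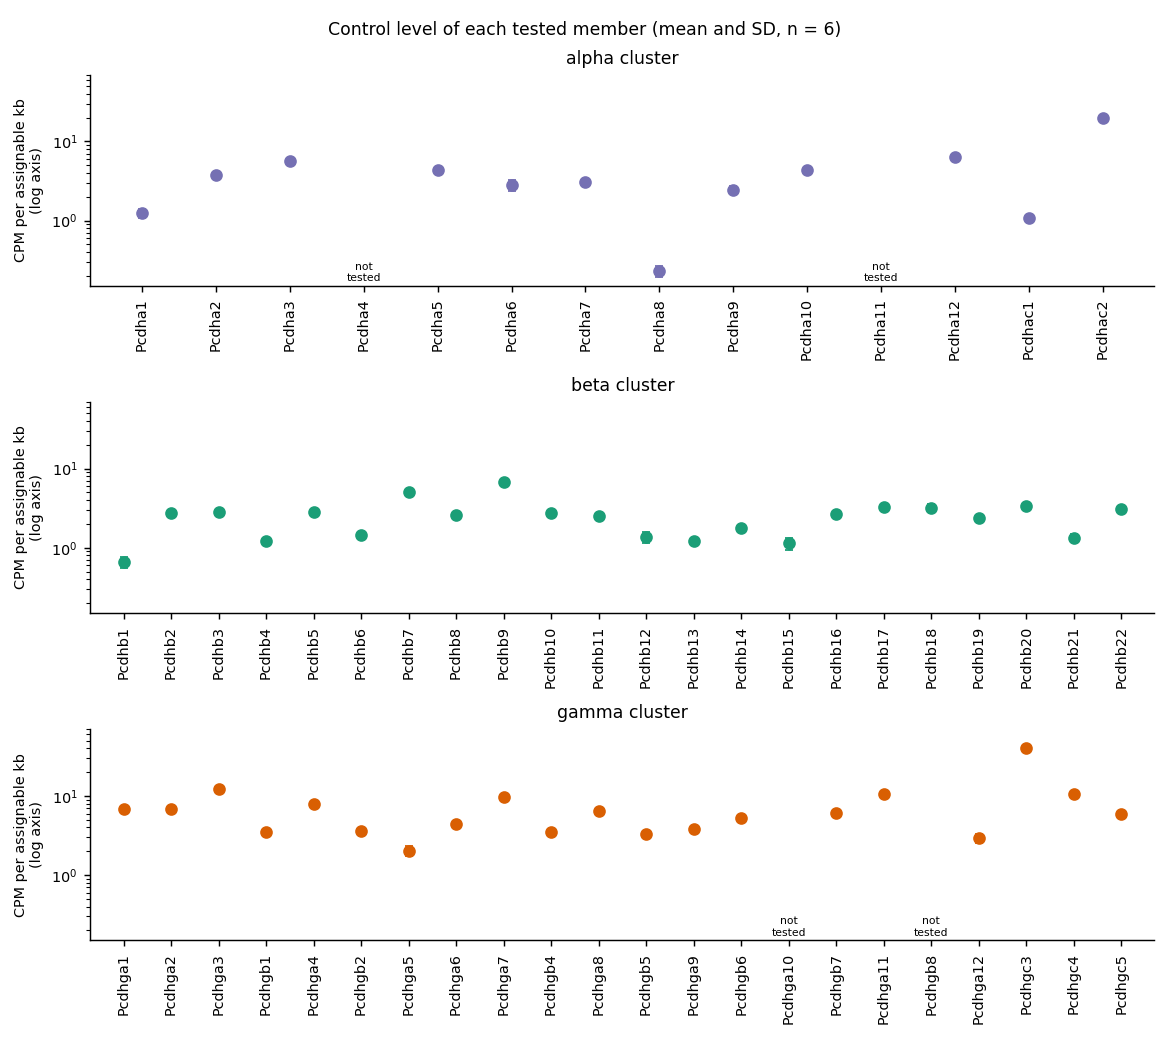
Control level of each tested member in CPM per kilobase of assignable exon (y axis, log scale) in order along its cluster (x axis), as mean and SD over 6 libraries. Pcdhgc3 at 40.1 and Pcdhac2 at 19.7 are the highest points, and Pcdha8 at 0.230 is the lowest.

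The comparison of mimic with control asks how raised miR-148a-3p changes transcripts in these cultures. Of all 18847 tested genes, 22.2% were called in either direction at an edgeR adjusted p under 0.05, 11.5% higher and 10.7% lower in mimic. Of the 54 tested members 8 were called, 4 higher and 4 lower. The share of called members was thus below that of all tested genes. The median log2 fold change of the members was 0.0040, against -0.012 over all tested genes. By cluster the calls were 1 higher and 3 lower of 12 in the alpha cluster, 1 lower of 22 in the beta cluster and 3 higher of 20 in the gamma cluster.

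In the alpha cluster Pcdha2, Pcdha12 and Pcdhac2 were lower in mimic. Pcdha2, an alternate isoform, was at 8.84, 9.28 and 10.03 CPM (lowest, median and highest library) in control and at 7.03, 7.81 and 8.21 in mimic. All mimic libraries were below all control libraries, and the log2 fold change was -0.28 (SE 0.061, adjusted p = 0.0023). Pcdha12 was at 11.7, 12.5 and 13.1 CPM in control and at 10.4, 11.1 and 11.3 in mimic. Its groups did not overlap either, with a log2 fold change of -0.18 (SE 0.047, adjusted p = 0.0093). Over all tested genes 13.3% had groups that did not overlap, over the alpha members 2 of 12 and over all tested members 3 of 54.

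Pcdhac2 was the third alpha isoform that fell. It was at 57.4, 60.2 and 62.5 CPM in control and at 52.2, 55.4 and 58.2 in mimic, so that the highest mimic library lay above the lowest control library. The log2 fold change was -0.11 (SE 0.036, adjusted p = 0.034). Pcdhac2 fell by the smallest step of the called members, and its call was lost with the replicate number as a block (adjusted p = 0.057), without the count filter (0.11) and without any of 7 single libraries (control replicates 2, 3 or 5, or mimic replicates 1, 2, 4 or 6), with adjusted p up to 0.088.

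Pcdha8 was the only alpha member called higher. It was at 0.431, 0.562 and 0.707 CPM in control and at 0.595, 0.809 and 1.09 in mimic, with overlapping groups and a log2 fold change of 0.55 (SE 0.18, adjusted p = 0.036). Only 14 to 33 counts per library stood behind these values, and the call was lost with DESeq2 (adjusted p = 0.060), without the count filter (0.077) and without any of 8 single libraries (control replicates 3, 4, 5 or 6, or mimic replicates 1, 4, 5 or 6), with adjusted p up to 0.094. The other C-type isoform of the cluster, Pcdhac1, was not called: it was at 2.34, 2.73 and 3.03 CPM in control and at 2.65, 3.15 and 3.90 in mimic, with a log2 fold change of 0.22 (SE 0.099, adjusted p = 0.13).

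Most alpha members that were not called pointed the same way as Pcdha2 and Pcdha12. Of the 12 tested alpha members 9 had a log2 fold change below 0 and 3 above, with a median of -0.12, whereas over all tested genes 9986 were below 0 and 8861 above. At an unadjusted p under 0.05 the alpha cluster had 6 lower and 2 higher members of 12, while 16.6% of all tested genes were lower and 16.1% higher at that threshold. Without control replicates 1 and 2 together, the shallowest libraries and an alternative chosen after seeing the data, 6 alpha members were lower instead of 3, as Pcdha5, Pcdha6 and Pcdha10 joined them, while 31.3% of all tested genes were then called.

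**Figure D3:**
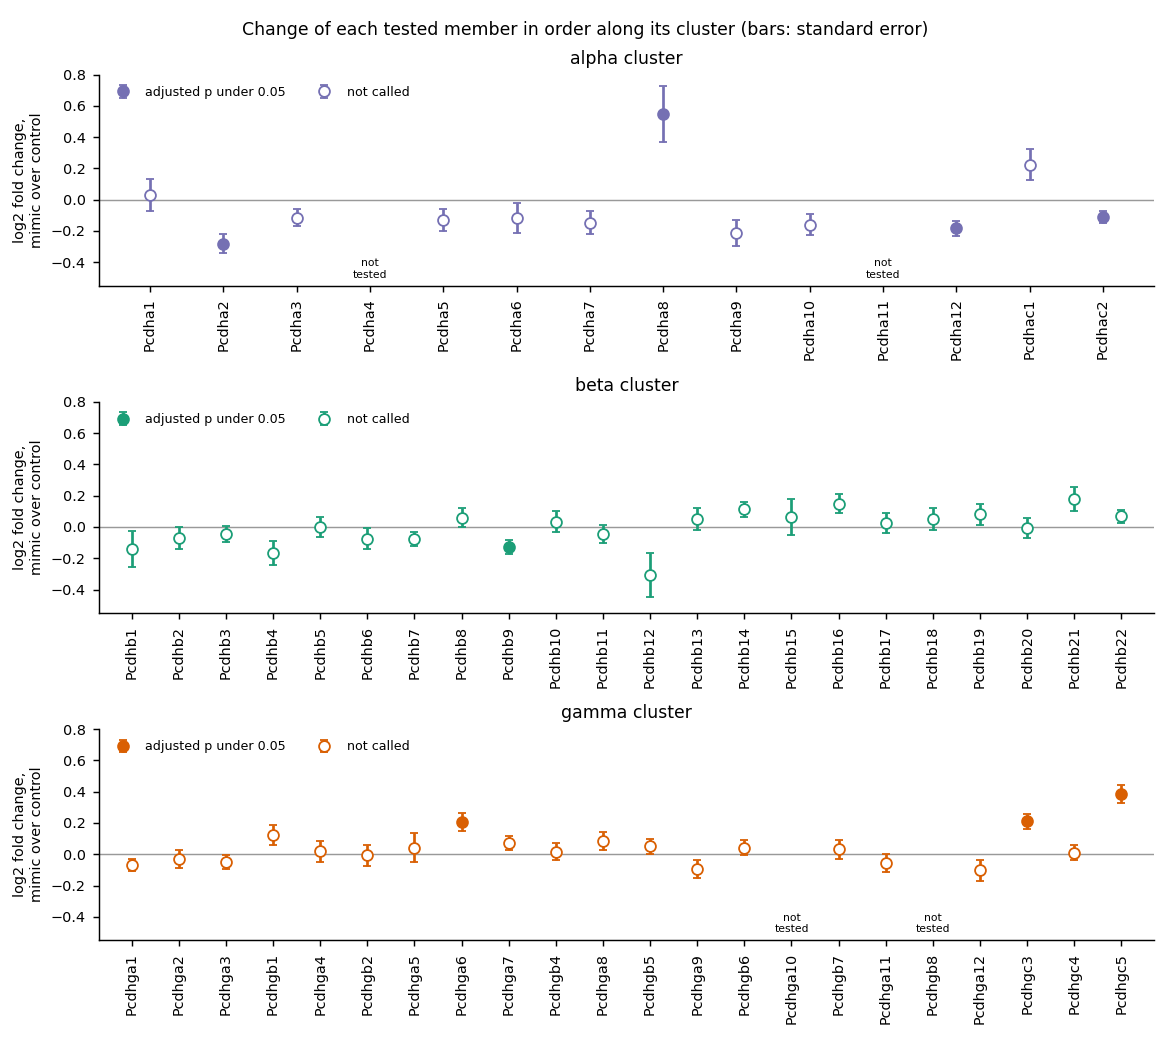
Log2 fold change of mimic over control (y axis, with standard error) of each tested member in order along its cluster (x axis). Filled points have an adjusted p under 0.05. In the alpha cluster 9 of 12 points lie below 0, and the largest gamma change is that of Pcdhgc5 at 0.38.

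In the beta cluster Pcdhb9 alone was called. It was at 19.5, 20.8 and 21.6 CPM in control and at 17.7, 18.9 and 19.6 in mimic, with groups that touched at their ends and a log2 fold change of -0.13 (SE 0.043, adjusted p = 0.045). This call was close to the threshold: it was lost without any single library other than control replicate 2, control replicate 3 or mimic replicate 3, with adjusted p up to 0.11, with the replicate number as a block (0.12) and without the count filter (0.15). The next most abundant isoform per kilobase, Pcdhb7, was at 16.5, 17.6 and 19.3 CPM in control and at 16.2, 16.6 and 17.3 in mimic (log2 fold change -0.079, SE 0.045, adjusted p = 0.25). The log2 fold changes of the 22 beta members had a median of 0.012, and none had groups without overlap. Of the 22 members 21 lay within 0.25 of 0, and the exception was Pcdhb12 at -0.31 (SE 0.14, adjusted p = 0.14), with 24 to 60 counts per library.

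The order of the beta genes along the chromosome and their log2 fold changes were related across genes, with Spearman's rho of 0.70 over 22 genes that share the same 12 libraries. Among Pcdhb1 to Pcdhb11, 9 of 11 values were below 0 with a median of -0.073, and among Pcdhb12 to Pcdhb22, 9 of 11 were above 0 with a median of 0.065. The split into these groups of genes was made after the values were seen, and it carries no test. Pcdhb12 to Pcdhb22 held 50.7%, 54.0% and 55.4% of the beta counts in the lowest, median and highest control library and 55.5%, 55.6% and 56.8% in the mimic libraries. The groups did not overlap, but the highest control and the lowest mimic library were nearly level, and control replicate 1 was the lowest library. Without control replicate 1 rho was 0.62, and without control replicates 1 and 2 it was 0.53. In the alpha cluster rho was 0.091 over 12 members and in the gamma cluster 0.18 over 20.

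In the gamma cluster Pcdhgc5, Pcdhgc3 and Pcdhga6 were higher in mimic. Pcdhgc5 had the smallest p of all members. It was at 24.9, 26.2 and 32.0 CPM in control and at 33.1, 35.5 and 37.5 in mimic. Every mimic library lay above every control library, the nearest control library being replicate 1, and the log2 fold change was 0.38 (SE 0.057, adjusted p = 8.9e-05), or 1.30-fold. Without control replicate 1 the log2 fold change was 0.43 (adjusted p = 2.1e-07).

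Pcdhgc3 was at 68.7, 70.5 and 81.0 CPM in control and at 77.4, 84.4 and 89.0 in mimic. The groups overlapped through control replicates 1 and 2, and the log2 fold change was 0.21 (SE 0.047, adjusted p = 0.0032). Without control replicate 1, the highest control library, it was 0.24 (adjusted p = 9.0e-05), and without both it was 0.27 (adjusted p = 1.5e-06). The antisense gene BC037039, which lies opposite a part of Pcdhgc3, had 18 to 42 counts per library and a log2 fold change of 0.37 (SE 0.17, adjusted p = 0.14). Since the kit does not mark strand, reads of Pcdhgc3 and of BC037039 in the shared stretch cannot be told apart.

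Pcdhgc4, which lies between them, was not called. It was at 33.6, 36.7 and 40.8 CPM in control and at 36.6, 37.4 and 38.1 in mimic, and its log2 fold change was 0.0087 (SE 0.048, adjusted p = 0.93). A ratio taken within each library does not depend on the scaling of the libraries. The ratio of Pcdhgc5 to Pcdhgc4 was 0.613, 0.735 and 0.786 in control and 0.879, 0.952 and 0.987 in mimic, without overlap. That of Pcdhgc3 to Pcdhgc4 was 1.88, 1.95 and 2.08 in control and 2.11, 2.26 and 2.37 in mimic, also without overlap. These ratios were chosen after the values were seen and are given as a description.

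Pcdhga6 was the only alternate gamma isoform called. It was at 10.3, 11.6 and 13.0 CPM in control and at 12.3, 13.3 and 14.1 in mimic, with a log2 fold change of 0.21 (SE 0.060, adjusted p = 0.018). The groups overlapped through control replicate 1 alone, and without it the log2 fold change was 0.24 (adjusted p = 0.0026). The most abundant alternate isoform, Pcdhga3, was at 29.8, 31.2 and 33.4 CPM in control and at 28.4, 30.1 and 33.4 in mimic (log2 fold change -0.051, SE 0.046, adjusted p = 0.49). The lowest gamma isoform, Pcdhga5, was at 4.63, 4.95 and 6.67 CPM in control and at 4.42, 5.28 and 5.94 in mimic (0.043, SE 0.092, adjusted p = 0.80). Over the gamma A members 1 of 11 was called and the median log2 fold change was -0.031, over the gamma B members 0 of 6 with a median of 0.036, and over the gamma C members 2 of 3 with a median of 0.21. No gamma member was called lower, and at an unadjusted p under 0.05 the counts were the same, 3 higher and 0 lower. DESeq2 also called 0 gamma members lower.

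**Figure D4:**
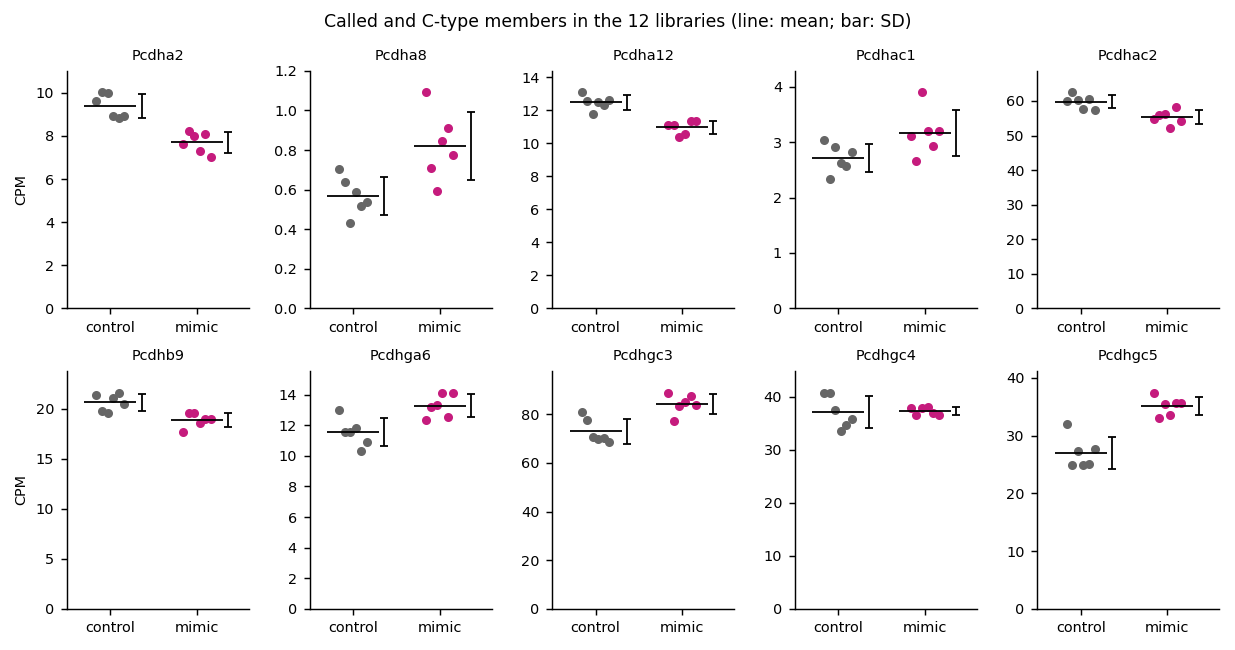
CPM (y axis, from 0) in the 6 control and 6 mimic libraries (x axis) of the 8 called members and of Pcdhac1 and Pcdhgc4, which were not called. Points are libraries, lines are means and bars are SD. Groups do not overlap in Pcdha2, Pcdha12 and Pcdhgc5.

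Summed over all their members, the clusters differed little between the groups, and no test was made on a sum. The alpha sum was at 137, 141 and 143 CPM in control and at 124, 129 and 135 in mimic, a ratio of means of 0.917 with no overlap of the groups. The beta sum was at 219, 232 and 239 CPM in control and at 227, 232 and 241 in mimic, a ratio of 1.01. The gamma sum was at 366, 379 and 412 CPM in control and at 390, 405 and 413 in mimic, a ratio of 1.05, and control replicate 1 lay at the top of the control group.

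Within the clusters the sum of the alternate alpha isoforms was lower without overlap of the groups, and the gamma sum differed mainly in the C-type isoforms. The alternate alpha members together were at 78.6 ± 2.34 CPM in control and 70.8 ± 2.70 in mimic (SD, n = 6), and Pcdhac1 and Pcdhac2 together at 62.5 ± 1.84 and 58.5 ± 2.02, with overlapping groups. Of this pair Pcdhac2 had a log2 fold change below 0 and Pcdhac1 one above 0. The C-type share of the alpha counts was 44.3% ± 1.28 in control and 45.2% ± 0.506 in mimic. In the gamma cluster the A members were at 174 ± 7.58 and 174 ± 4.43 CPM, the B members at 71.7 ± 2.06 and 73.8 ± 1.91, and the C members at 137 ± 9.64 and 157 ± 5.72. The groups of the C members overlapped through control replicate 1 alone, at 154 CPM, and the log2 ratio of the means was 0.19 with it and 0.23 without it. The C-type share of the gamma counts was 34.9%, 35.6% and 37.2% in control and 37.7%, 38.8% and 40.5% in mimic, with no overlap. Of the counts of all 3 clusters the alpha cluster held 17.9%, 18.9% and 19.0% in control and 16.4%, 16.8% and 17.5% in mimic, again with no overlap. Per assignable kilobase the C-type share of gamma remained without overlap (35.7% to 37.7% against 38.3% to 41.3%), but the alpha share of the 3 clusters overlapped (19.5% to 21.2% against 18.1% to 19.6%). This overlap came through the lowest control library alone, and by counts the lowest was control replicate 1.

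**Figure D5:**
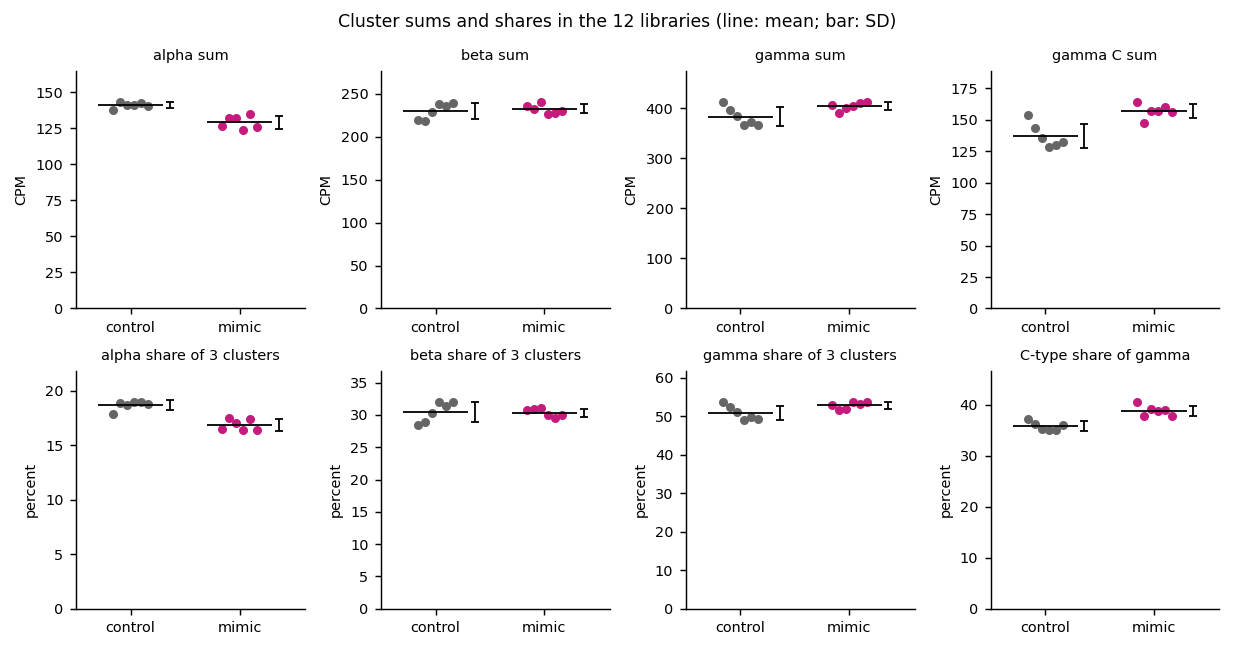
Summed CPM of the alpha, beta and gamma clusters and of the gamma C members, and the share of each cluster in the counts of all 3 and of the C-type members in gamma (y axes, from 0), in 6 control and 6 mimic libraries (x axes). Points are libraries, lines are means and bars are SD. The alpha sum, the alpha share and the C-type share of gamma separate the groups.

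Protocadherins outside the clusters, which are single genes with their own promoters, were compared as relatives. Of 12 listed genes 11 were tested, 2 were called higher and 1 lower, a share near the 22.2% of all tested genes. Pcdh18 was at 7.59, 7.78 and 8.13 CPM in control and at 9.58, 10.4 and 10.9 in mimic (log2 fold change 0.40, SE 0.053, adjusted p = 2.3e-05). Pcdh17, which acts at corticobasal ganglia synapses, was at 137, 153 and 159 CPM in control and at 168, 173 and 184 in mimic (0.22, SE 0.042, adjusted p = 0.0010). Neither overlapped between the groups. Pcdh19, the gene of a form of epilepsy in girls, was at 97.6, 112 and 121 CPM in control and at 88.1, 96.9 and 99.0 in mimic (-0.23, SE 0.048, adjusted p = 0.0020). Its groups overlapped through control replicate 1 alone, and without that library the log2 fold change was -0.26 (adjusted p = 2.1e-05). The median over the 11 tested genes was 0.0096.

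Of 27 listed and tested regulators of promoter choice and chromatin 6 were called higher and 1 lower, a share in all near the 22.2% of all tested genes, of which 11.5% were higher and 10.7% lower. In this list 23 of 27 values were above 0, with a median log2 fold change of 0.078, against 8861 of 18847 and -0.012 over all tested genes. Of the 7 called genes, 5 are given by name. Rad21, a cohesin subunit, was at 130, 138 and 143 CPM in control and at 176, 178 and 192 in mimic (log2 fold change 0.40, SE 0.035, adjusted p = 3.0e-07). Ctcf, whose protein binds the promoters and enhancers of the clusters and holds DNA loops with cohesin, was at 58.5, 61.9 and 65.3 CPM in control and at 72.5, 76.0 and 81.9 in mimic (0.30, SE 0.039, adjusted p = 2.6e-05). Smc3, another cohesin subunit, was at 70.2, 79.4 and 85.1 CPM in control and at 88.1, 88.9 and 91.3 in mimic (0.19, SE 0.041, adjusted p = 0.0030). In all 3 genes every mimic library was above every control library. The cohesin genes are also part of cell division: all 5 markers of dividing cells were called higher as well, and their part in this result was not tested.

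Among the other regulators, Rest, a repressor of neuronal genes, was at 13.2, 15.6 and 16.2 CPM in control and at 18.8, 19.4 and 21.4 in mimic (log2 fold change 0.38, SE 0.055, adjusted p = 7.2e-05). Tet1, an enzyme that oxidises methylated cytosine, was at 40.8, 50.6 and 52.2 CPM in control and at 60.7, 61.8 and 67.1 in mimic (0.39, SE 0.061, adjusted p = 0.00015). The DNA methyltransferases Dnmt1, Dnmt3a and Dnmt3b were not called.

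Partners that carry or cut the protocadherin signal were called in 5 of 27 tested genes, 1 higher and 4 lower, a share near the 22.2% of all tested genes, with a median log2 fold change of -0.0063. Rac1, a GTPase that drives actin assembly, was at 176, 186 and 191 CPM in control and at 196, 199 and 207 in mimic (0.12, SE 0.031, adjusted p = 0.0094). The count of partners called higher rose to 4 with DESeq2, with at least 10 counts in all 12 samples and without control replicate 1. Wasf1, a subunit of the WAVE complex that some protocadherins bind, was at 265, 275 and 291 CPM in control and at 252, 258 and 261 in mimic (-0.10, SE 0.031, adjusted p = 0.026). Ptk2b, the kinase PYK2 that alpha and gamma protocadherins bind and inhibit, had a log2 fold change of -0.18 (SE 0.053, adjusted p = 0.023). Ret, a receptor kinase found in complexes with protocadherins, was at -0.25 (SE 0.076, adjusted p = 0.023). Robo1, an axon guidance receptor, was at -0.10 (SE 0.030, adjusted p = 0.022). Its UTR held 2 sites for the mimic, and of the 27 partners Abi2 held 3 and Cyfip2, Nckap1, Axin1, Adam10 and Nlgn1 held 1 each, none of which was called. The related kinase gene Ptk2 and the scaffold gene Axin1 were not called (log2 fold change -0.017, SE 0.038, and -0.0064, SE 0.051). The 4 lower calls were each lost without at least 1 single library: Ptk2b without control replicate 2 or mimic replicates 2, 3 or 4, Ret without control replicate 2 or mimic replicates 1 or 2, Wasf1 without mimic replicates 2, 3 or 5, and Robo1 without mimic replicate 1. With the replicate number as a block Ret (adjusted p = 0.067), Wasf1 (0.068) and Robo1 (0.081) were lost, and without the count filter Wasf1 (0.11) and Robo1 (0.13).

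The cultures carried neuronal and glial markers in both groups. The 10 neuronal markers summed to 8006 to 8647 CPM in control and 7912 to 8257 in mimic, with 0 called higher and 3 lower. No marker list had a gene at 0 in all libraries. Summed markers of dividing cells were at 151 to 188 CPM in control and 321 to 342 in mimic (5 of 5 called higher), those of the oligodendrocyte lineage at 393 to 681 and 768 to 963 (5 of 8 higher, 1 lower), and those of astrocytes at 4895 to 5378 and 5718 to 6180 (6 of 9 higher, 1 lower). Mesenchymal markers were at 196 to 264 CPM in control and 94.9 to 219 in mimic (2 of 7 lower), and markers of multiciliated ependymal cells at 107 to 126 and 81.4 to 105 (4 of 5 lower). Markers of interneurons (283 to 318 and 301 to 318 CPM, 1 of 5 higher) and of microglia (10.6 to 12.5 and 9.002 to 15.4 CPM, 2 of 7 lower) overlapped between the groups. The sums for dividing cells, the oligodendrocyte lineage, astrocytes and multiciliated ependymal cells separated the groups, as Pcdhgc5, Pcdha2 and Pcdha12 did, and their part in the protocadherin values was not tested.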

How the data were processed

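The 12 samples were mouse primary hippocampal cultures, 6 control and 6 mimic, grouped by their titles. Per the labels, poly(A) RNA libraries (TruSeq v2) were sequenced as 50 bp single-end reads, and per the submitters' processing notes FastQC 0.11.5, STAR 2.5.2b, featureCounts, Subread 1.5.1 and build mm10 were used. The authors deposited raw counts per Ensembl gene, whole numbers, and these counts were used here. The deposited series table of normalized values was not used. Annotation release, strand and multi-overlap settings of the counting are not given in the sources used here, and another release could assign reads differently.

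Symbols, exons and UTRs came from GENCODE M21 on GRCm38, the build called mm10, which named 48349 of 48709 genes. The gene with the duplicate symbol Pcdha11 that RefSeq places at Pcdha10 was called Pcdha10. Assignable bases are exon bases in no other gene on either strand. A gene was tested if 6 or more samples had 5 or more counts, with edgeR 4.0.16 (R 4.3.3): TMM scaling, quasi-likelihood F-test with robust estimation, no covariate, Benjamini-Hochberg adjustment over all tested genes, called at an adjusted p under 0.05. SE is the size of the log2 fold change divided by the square root of F. DESeq2 1.42.0, RLE scaling, other filters, a replicate block, a minimum fold change of 1.2 and leaving out libraries were alternatives. The code was tested on simulated data. Replicates differed by more than counting noise (chi-square per degree of freedom at least 1.73).

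Named were all called members, the C-type members, the 2 highest and the lowest tested member per kilobase in each cluster, and in the other lists the called genes, at most 6 with the smallest p. Other members and genes given with values (the untested members, Pcdha3, Pcdhga7, Pcdhga11, Pcdhb12, Pcdhb18, Pcdhb19, Pcdhb21, Pcdhb22, BC037039, Ptk2, Axin1 and the partners with seed sites) were named after their values were seen. Of the genes under this rule, 1 is not reported here. The members and lists were chosen with earlier results of these data known.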

Additional observations from a re-analysis of the deposited data

Results flagged for a closer look

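The share of the alpha cluster in the counts of all 3 clusters was set apart in 1 control library. It was 17.9% in control replicate 1 and 18.7% to 19.0% in the other control libraries, a gap of 0.755 of the whole range of the group, above Dixon's critical value of 0.625 for 6 samples. This was 1 of 50 groups of values examined, and chance alone sets apart about 1 in 20. The mimic libraries were at 16.4% to 17.5%, below control replicate 1 as well.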

How the results depend on the processing

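The calls of Pcdha2, Pcdha12, Pcdhgc5, Pcdhgc3 and Pcdhga6 were kept under DESeq2, RLE scaling, both other filters, the replicate block and each left-out library, and were lost only when a fold change over 1.2 was required. That setting left 0 alpha (higher or lower), 0 beta and 0 gamma calls, 1 non-clustered protocadherin higher and 0 lower, 1 regulator higher and 0 lower, and 0 signalling partners in either direction, with 5.49% of all tested genes called. DESeq2 gave 0 alpha members higher and 4 signalling partners higher. Without the count filter 0 alpha members were higher, 0 beta members lower, 3 signalling partners higher and 2 lower. With at least 10 counts in all 12 samples 4 signalling partners were higher. With the replicate number as a block 0 beta members were lower, and 2 signalling partners were higher and 1 lower. Same-numbered samples deviated with correlations of -0.080 to 0.18, not all above 0.1. A control sample correlated best with the mimic sample of its own number in 0 of 6 cases. These values do not show pairing, and the labels do not say whether the numbers pair samples. Without control replicates 1 and 2 together (chosen after seeing the data) the counts were 6 alpha lower, 2 beta lower, 2 non-clustered lower, 11 regulators higher, and 4 signalling partners higher and 8 lower. In the gamma cluster Pcdhga7 was then called higher as well (log2 fold change 0.11, adjusted p = 0.032). Leaving out 1 library at a time gave 0 to 1 alpha members higher and 2 to 4 lower, 0 to 1 beta members higher and 0 to 2 lower, 3 to 3 gamma members higher, and 1 to 4 signalling partners higher and 1 to 5 lower. The beta member called higher was Pcdhb16, without mimic replicate 5, and the second one called lower was Pcdhb12, without control replicate 2. Signalling partners called higher were 4 without control replicate 1 and 2 without mimic replicate 1, and those called lower were 2 without control replicate 2, mimic replicate 1 or mimic replicate 3 and 1 without mimic replicate 2. The cause of these shifts was not tested. All cluster sums and shares moved by less than 1 SD under each of their alternatives. Pcdha8, with 14 to 33 counts, is limited by depth, Pcdhga10 and Pcdha4 by having no or few assignable bases, and single alpha and gamma members by their shared exons.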
